A study of Mus musculus with 16 samples.

Results

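The genes described here are 39 genes induced by type I interferon, grouped by the role of their products. They were taken from a list of symbols that was drawn up with earlier results of these arrays known, and 34 of the 39 had a probe set among the 17097 genes measured. Oas1a, Bst2, Isg15, Ifi44 and Phf11d were not analysed here. Where a gene had several probe sets, the brightest on average over the 16 arrays was read.

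RNA was measured on 16 arrays of macrophages from the fat of mice aged 19 to 21 weeks. The control mice carried floxed Sucnr1 alleles (Sucnr1flox/flox, labelled WT), and the knockout mice (LysM-Sucnr1-/-, here KO) were made to lack Sucnr1, the succinate receptor gene, in cells that express Cre from the LysM gene, Lyz2. LysM-Cre acts in several kinds of myeloid cells and is known to be incomplete in tissue macrophages. Cells came from subcutaneous (SAT) or visceral (VAT) adipose tissue, after collagenase digestion and selection with CD11b beads; another label calls them F4/80+. All source names carry the abbreviation NCD, which is not spelled out. Each of the 4 groups (WT SAT, WT VAT, KO SAT and KO VAT) had 4 pools, with pools 1 and 2 on day 1 and pools 3 and 4 on day 2. The labels do not say how many mice made a pool, nor whether SAT and VAT pools of 1 number came from the same mice, so p-values measure only the spread between these pools.

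Several facts of the whole set bear on every result below. The Sucnr1 probe set lay below the background level of 4.78 (the 95th percentile of 41 olfactory receptor genes) in all groups, with means from 3.52 to 3.55, so it did not check the genotype. Lyz2 itself was lower in KO than in WT, with log2 changes of -0.64 ± 0.14 (SE, limma adjusted p = 0.00525) in SAT and -0.58 ± 0.14 (SE, limma adjusted p = 0.0156) in VAT. All 10 macrophage markers, including Adgre1 (F4/80) and Itgam (CD11b), were above background in every group. Some depot markers went opposite ways in the 2 genotypes. Skeletal muscle markers, from tissue that adjoins subcutaneous fat, had means of 7.71 to 8.59 in WT SAT and 4.89 to 5.23 in WT VAT, against 4.81 to 5.04 in KO SAT and 5.81 to 6.56 in KO VAT. Of 6 transcription factor genes typical of subcutaneous stroma, Tbx15, Shox2, Hoxc10 and En1 were higher in KO VAT than in KO SAT, with log2 changes of 0.47, 0.58, 1.61 and 0.65 that passed in limma, and the same differences within WT were -0.39, -0.38, -0.51 and -0.13, none past the threshold. En1 was below background in all groups. Hoxc8 went the other way, with -0.42 within KO and 0.53 within WT, both past the threshold, and Hoxc9 passed in neither. The 8 mesothelial and visceral fat markers, at most 2 of them above background in any group, had median changes near 0 (-0.03 within KO and -0.04 within WT), and within KO 1 was higher and 1 lower. Seminal vesicle genes had means of 10.06 to 10.76 in KO SAT and of at most 6.13 elsewhere. Depot names are used as labelled, and comparisons that cross them, or that do not use them, are given too.

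Type I interferons (interferon beta and the interferon alphas) bind 1 receptor of 2 chains, IFNAR1 and IFNAR2. The receptor's kinases activate STAT2, which joins IRF9 in the factor that binds the interferon-stimulated response element in the promoters of the induced genes. The products sense foreign nucleic acid, degrade or sequester viral RNA, alter nucleotide pools, attach the ubiquitin-like protein ISG15 to other proteins, and feed back on the receptor. Resident macrophages of many tissues express these genes at a basal level.

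RefSeq promoters on GRCm38.p6 were found for 24 of the 34 genes. The element was searched as GAAA, any 2 bases and GAAA again, on both strands in 300 bases, from 250 before to 50 after the start. It was present for 9 of the 24 genes (37.5%), against 3.99% of all 27025 genes with a listed promoter. A gene was counted when any of its listed promoters held the element. The longer form that goes on with CT, which contains the shorter, was in 4 of 24 (16.7%), against 0.303% of all. The following lines show the 200 bases before the start, in the direction of transcription, for the 4 genes with the largest decrease from KO SAT to KO VAT that hold the element there, and for Cmpk2, which had the largest decrease of all members and no match. Capitals mark the element in either orientation.
Ifit1, chr19:34640689-34640888, plus strand, element at -104 and -85: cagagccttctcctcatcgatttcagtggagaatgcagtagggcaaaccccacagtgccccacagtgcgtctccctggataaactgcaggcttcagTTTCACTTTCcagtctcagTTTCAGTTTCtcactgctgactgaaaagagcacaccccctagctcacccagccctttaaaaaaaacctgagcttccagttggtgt
Rsad2, chr12:26456453-26456652, minus strand, element at -120: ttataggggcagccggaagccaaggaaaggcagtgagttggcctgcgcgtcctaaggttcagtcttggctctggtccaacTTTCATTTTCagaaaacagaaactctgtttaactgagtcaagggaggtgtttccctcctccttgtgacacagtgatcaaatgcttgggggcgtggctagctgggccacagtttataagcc
Ddx60, chr8:61927887-61928086, plus strand, element at -53 and -19: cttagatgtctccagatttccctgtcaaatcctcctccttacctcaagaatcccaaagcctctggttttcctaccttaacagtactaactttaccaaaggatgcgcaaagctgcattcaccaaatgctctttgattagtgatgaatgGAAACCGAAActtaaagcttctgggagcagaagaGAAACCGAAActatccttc
Ifit3, chr19:34583329-34583528, plus strand, element at -156 and -122: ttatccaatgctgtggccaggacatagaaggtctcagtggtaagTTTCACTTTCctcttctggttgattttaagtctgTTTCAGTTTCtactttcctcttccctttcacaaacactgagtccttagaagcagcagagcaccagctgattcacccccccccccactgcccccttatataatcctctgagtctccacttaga
Cmpk2, chr12:26469015-26469214, plus strand, no match: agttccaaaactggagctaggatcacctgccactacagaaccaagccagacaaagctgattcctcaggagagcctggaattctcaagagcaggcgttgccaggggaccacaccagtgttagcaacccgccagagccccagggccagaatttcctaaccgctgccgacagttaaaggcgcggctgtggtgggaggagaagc
Rsad2 and Cmpk2 are neighbours on chromosome 12, transcribed in opposite directions. A match is a run of letters, not a measured binding site.

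The level of most members was highest in KO SAT. The mean over its 4 pools was the highest of the 4 groups for 32 of the 34 members (94.1%), against 20.4% of all genes. The exceptions were Oas3, highest in WT SAT, and Eif2ak2, highest in WT VAT. The lowest mean was in WT SAT for 23 members, in KO VAT for 9 and in WT VAT for 2. As a summary of each array, the median over members of the log2 difference from the gene's own mean was 0.20, 0.28, 0.48 and 0.46 in KO SAT pools 1 to 4 and -0.21, -0.31, 0.11 and -0.08 in KO VAT. It was -0.43, -0.18, -0.05 and -0.27 in WT SAT and -0.56, -0.10, 0.32 and 0.46 in WT VAT. Every KO SAT pool lay above every WT SAT and KO VAT pool, while the WT VAT pools ran from the lowest array of all, pool 1, to the level of KO SAT.

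**Figure D1:**
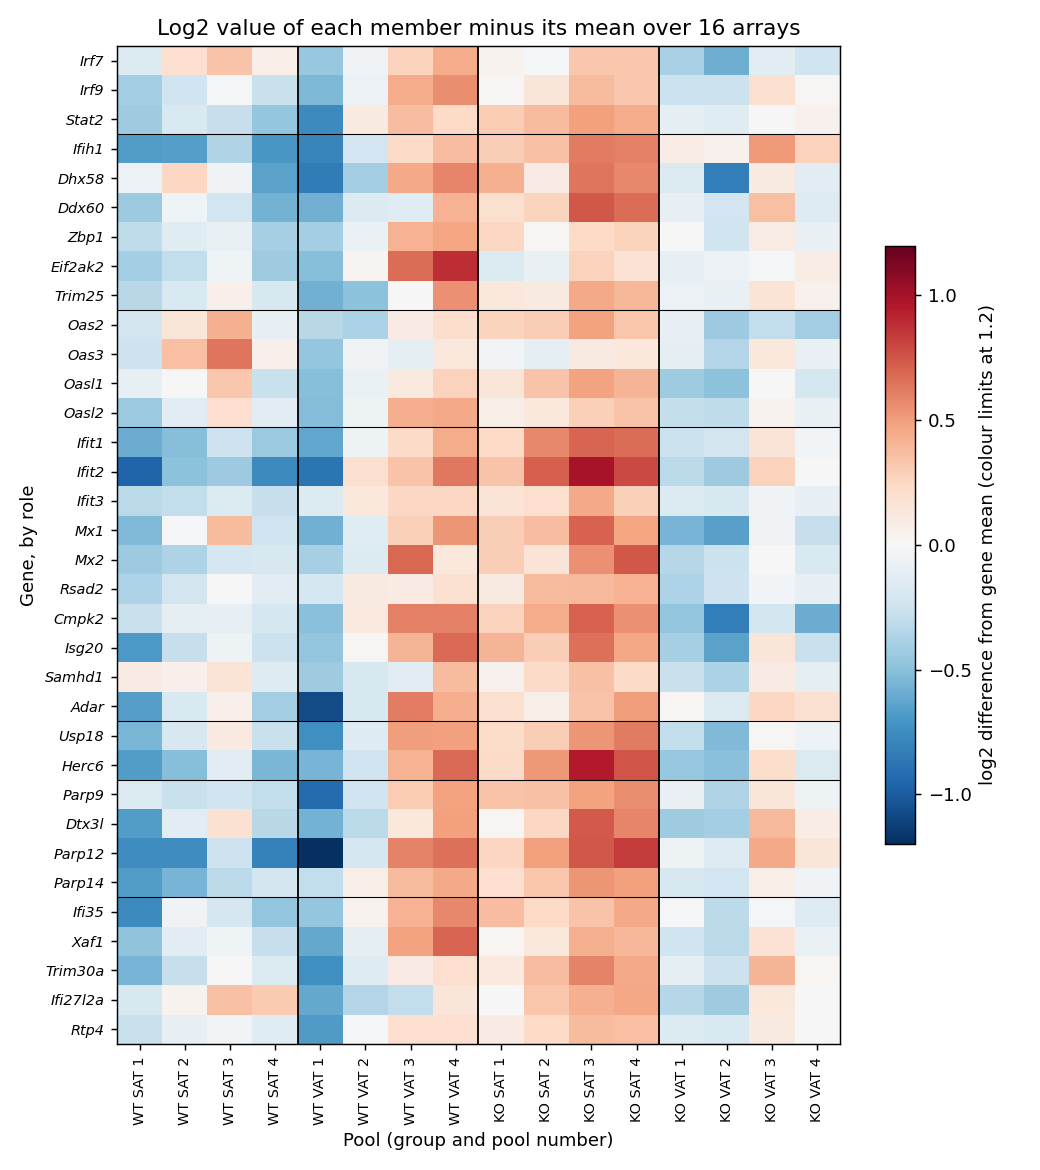
Log2 value of each of the 34 members (rows, ordered by role) minus its mean over the 16 arrays, for each pool (columns). All 4 KO SAT columns are mostly above the gene means, WT VAT pool 1 is below the mean for every member, and WT VAT pool 4 is above it for 34 of 34.

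In all sentences that follow, levels are log2 RMA values for pools 1, 2, 3 and 4 in that order, and changes are log2 differences between group means of 4 pools from 1 limma fit with day as a term. A gene passed when its Benjamini-Hochberg adjusted p over 17097 genes was under 0.05. Levels of different genes are not compared, since probe sets differ in their response.

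Within the knockout mice, 15 of the 34 interferon response genes fell from SAT to VAT (44.1%) and 0 rose, against 2.39% of all genes lower and 4.32% changed in either direction. All 34 changes were negative and ran from -1.02 for Cmpk2 to -0.07 for Eif2ak2, with a median of -0.48 against 0.00 for all genes. The pools of KO VAT lay wholly below those of KO SAT for 18 members, which 5.03% of all genes did. In both days the change was negative for 33. The count was 1 in either day alone and 4 without the day term, and 27 to 31 with quantile normalization, array spread as a term, the KO arrays alone or array weights. RNA from a cell fraction cannot tell fewer cells of a type from less RNA per cell.

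Of the transcription factors, Irf7 passed. Irf7, which amplifies the response, read 9.82, 10.18, 10.32 and 10.06 for SAT and 9.52, 9.93, 10.26 and 10.43 for VAT in controls, and 10.02, 9.96, 10.30 and 10.30 for SAT and 9.59, 9.40, 9.85 and 9.74 for VAT in knockouts. The KO VAT pools were below all KO SAT pools, and the change was -0.50 ± 0.12 (SE, limma adjusted p = 0.0236). Stat2, part of the factor that binds the response element, read 9.32, 9.56, 9.47 and 9.28 for SAT and 8.98, 9.86, 10.12 and 9.98 for VAT in controls, and 10.05, 10.12, 10.24 and 10.19 for SAT and 9.63, 9.60, 9.75 and 9.79 for VAT in knockouts. Its KO VAT and KO SAT pools did not overlap either, but the change of -0.46 ± 0.16 (SE, limma adjusted p = 0.172) did not pass. Irf9, which gives that factor its DNA binding, had a change of -0.29 and did not pass.

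None of the 6 genes for sensors and their ligase passed within the knockout, and 2 had an unadjusted p under 0.05 in limma. Ifih1, whose product MDA5 senses double-stranded RNA, read 7.65, 7.66, 7.95 and 7.62 for SAT and 7.52, 8.09, 8.55 and 8.69 for VAT in controls, and 8.61, 8.67, 8.94 and 8.92 for SAT and 8.41, 8.37, 8.83 and 8.60 for VAT in knockouts. Its WT SAT pools were below all knockout pools, and its KO SAT and KO VAT pools overlapped. Zbp1, a sensor of Z-form nucleic acid, read 9.70, 9.85, 9.91 and 9.60 for SAT and 9.58, 9.92, 10.42 and 10.47 for VAT in controls, and 10.24, 10.01, 10.23 and 10.26 for SAT and 10.004, 9.76, 10.08 and 9.91 for VAT in knockouts. The KO VAT pools reached 10.08 and the KO SAT pools began at 10.01, so these groups overlapped. Ddx60, a helicase with a pair of matches to the element in its promoter, read 5.22, 5.61, 5.43 and 5.09 for SAT and 5.08, 5.49, 5.51 and 6.08 for VAT in controls, and 5.85, 5.92, 6.41 and 6.32 for SAT and 5.56, 5.42, 6.02 and 5.50 for VAT in knockouts. Day 2 pools of KO SAT were the highest, and the change of -0.50 ± 0.17 (SE, limma adjusted p = 0.158) did not pass. The others were Dhx58 (LGP2), Eif2ak2 (the RNA-activated kinase PKR) and Trim25, a ubiquitin ligase of RIG-I, with changes from -0.69 to -0.07.

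In the oligoadenylate synthetase family, whose classical members make the activator of RNase L, 2 of 4 passed. Oas2 read 8.03, 8.40, 8.68 and 8.15 for SAT and 7.92, 7.87, 8.35 and 8.46 for VAT in controls, and 8.51, 8.54, 8.74 and 8.58 for SAT and 8.15, 7.82, 7.95 and 7.83 for VAT in knockouts. KO VAT was below KO SAT in every pool, and the change was -0.65 ± 0.14 (SE, limma adjusted p = 0.0121). Oasl1, known as an inhibitor of Irf7 translation, had a change of -0.62 ± 0.13 (SE, limma adjusted p = 0.0124). Oasl2 read 9.86, 10.18, 10.52 and 10.18 for SAT and 9.79, 10.25, 10.75 and 10.77 for VAT in controls, and 10.39, 10.43, 10.60 and 10.65 for SAT and 10.03, 10.003, 10.36 and 10.22 for VAT in knockouts. Its KO pools did not overlap, and its change of -0.36 ± 0.13 (SE, limma adjusted p = 0.159) did not pass. Oas3 had a change of -0.13 and did not pass.

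The antiviral effectors held the most members that passed, 8 of 10. Cmpk2, a mitochondrial nucleotide kinase, read 8.56, 8.71, 8.73 and 8.62 for SAT and 8.33, 8.95, 9.43 and 9.43 for VAT in controls, and 9.10, 9.27, 9.54 and 9.37 for SAT and 8.35, 7.998, 8.61 and 8.23 for VAT in knockouts. Every KO VAT pool was below every KO SAT pool, by 2.03-fold on average, with a change of -1.02 ± 0.16 (SE, limma adjusted p = 0.00169). Rsad2, which encodes viperin, a maker of a chain-terminating nucleotide, read 11.47, 11.62, 11.85 and 11.72 for SAT and 11.63, 11.96, 11.94 and 12.03 for VAT in controls, and 11.95, 12.22, 12.23 and 12.27 for SAT and 11.48, 11.59, 11.82 and 11.75 for VAT in knockouts. Its KO VAT pools ended below the lowest KO SAT pool, and the change was -0.51 ± 0.09 (SE, limma adjusted p = 0.00247). Both neighbours on chromosome 12 thus fell in the same comparison.

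Ifit1, whose product binds foreign RNA ends, read 9.02, 9.11, 9.37 and 9.17 for SAT and 8.99, 9.56, 9.85 and 10.06 for VAT in controls, and 9.86, 10.20, 10.32 and 10.29 for SAT and 9.36, 9.39, 9.78 and 9.58 for VAT in knockouts. The change was -0.64 ± 0.13 (SE, limma adjusted p = 0.0102), with no overlap of the KO pools. Ifit3, a partner of Ifit1, read 11.07, 11.10, 11.22 and 11.11 for SAT and 11.22, 11.51, 11.64 and 11.63 for VAT in controls, and 11.55, 11.59, 11.85 and 11.68 for SAT and 11.22, 11.19, 11.35 and 11.29 for VAT in knockouts. Its KO VAT pools lay close to those of WT SAT and below those of KO SAT, with a change of -0.40 ± 0.08 (SE, limma adjusted p = 0.00645). Ifit2, of the same family, had a change of -0.83 ± 0.21 (SE, limma adjusted p = 0.0323). Mx1, a dynamin-like GTPase that blocks viruses in the nucleus, read 6.95, 7.46, 7.86 and 7.24 for SAT and 6.90, 7.34, 7.77 and 8.01 for VAT in controls, and 7.78, 7.85, 8.19 and 7.96 for SAT and 6.92, 6.83, 7.44 and 7.20 for VAT in knockouts. KO VAT was below KO SAT in every pool, with a change of -0.84 ± 0.16 (SE, limma adjusted p = 0.00565). Its cytoplasmic relative Mx2 had a change of -0.63 ± 0.13 (SE, limma adjusted p = 0.00936), and Isg20, an exonuclease, of -0.75 ± 0.15 (SE, limma adjusted p = 0.00914). The 2 effectors that did not pass were Samhd1, which degrades nucleotides, and Adar, an RNA editing enzyme. Adar read 7.95, 8.43, 8.67 and 8.20 for SAT and 7.54, 8.42, 9.22 and 9.05 for VAT in controls, and 8.81, 8.69, 8.96 and 9.11 for SAT and 8.64, 8.44, 8.86 and 8.80 for VAT in knockouts. Its KO pools overlapped, and the change was -0.21.

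Both measured genes of the ISG15 system passed. Usp18, which removes ISG15 and dampens the receptor, read 8.85, 9.20, 9.50 and 9.13 for SAT and 8.66, 9.24, 9.90 and 9.88 for VAT in controls, and 9.61, 9.69, 9.92 and 10.02 for SAT and 9.10, 8.86, 9.41 and 9.33 for VAT in knockouts. The KO pools did not overlap, and the change was -0.63 ± 0.16 (SE, limma adjusted p = 0.0298). Herc6, the ligase that attaches ISG15 in mice, read 6.79, 6.95, 7.33 and 6.91 for SAT and 6.90, 7.22, 7.88 and 8.14 for VAT in controls, and 7.69, 7.98, 8.41 and 8.22 for SAT and 7.01, 6.96, 7.67 and 7.29 for VAT in knockouts. Its highest KO VAT pool, 7.67, was just below the lowest KO SAT pool, 7.69, and the change was -0.84 ± 0.15 (SE, limma adjusted p = 0.00403). Of the ADP-ribosyltransferases and Dtx3l, the ubiquitin ligase that pairs with Parp9, 1 of 4 passed. Parp14, the one that did, read 9.49, 9.60, 9.83 and 9.94 for SAT and 9.86, 10.22, 10.54 and 10.61 for VAT in controls, and 10.36, 10.49, 10.68 and 10.64 for SAT and 9.97, 9.93, 10.23 and 10.12 for VAT in knockouts. KO VAT was below KO SAT in every pool, with a change of -0.48 ± 0.09 (SE, limma adjusted p = 0.00578), and the other 3 members had changes from -0.52 to -0.49.

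Of the 5 other induced genes, Ifi27l2a passed. Ifi27l2a, a small hydrophobic protein gene, read 9.52, 9.76, 10.06 and 10.02 for SAT and 9.09, 9.36, 9.42 and 9.85 for VAT in controls, and 9.71, 10.05, 10.14 and 10.18 for SAT and 9.37, 9.29, 9.84 and 9.71 for VAT in knockouts. The KO pools overlapped, and the change was -0.47 ± 0.11 (SE, limma adjusted p = 0.0196). Rtp4, a receptor chaperone with antiviral activity, read 10.48, 10.65, 10.72 and 10.61 for SAT and 10.07, 10.73, 10.95 and 10.95 for VAT in controls, and 10.85, 10.99, 11.13 and 11.11 for SAT and 10.59, 10.56, 10.86 and 10.75 for VAT in knockouts. KO VAT pool 3 exceeded KO SAT pool 1, and the change of -0.33 ± 0.12 (SE, limma adjusted p = 0.204) did not pass. Ifi35, Xaf1 and Trim30a had changes from -0.48 to -0.36 and did not pass. For 11 members the arrays carried further probe sets, and all 12 of these above background had the sign of the probe set used in this comparison. In KO SAT minus WT SAT 12 of the 12 did, and in KO SAT minus WT VAT 11. In WT VAT minus WT SAT and in KO VAT minus WT VAT 10 did, and in KO VAT minus WT SAT 8.

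**Figure D2:**
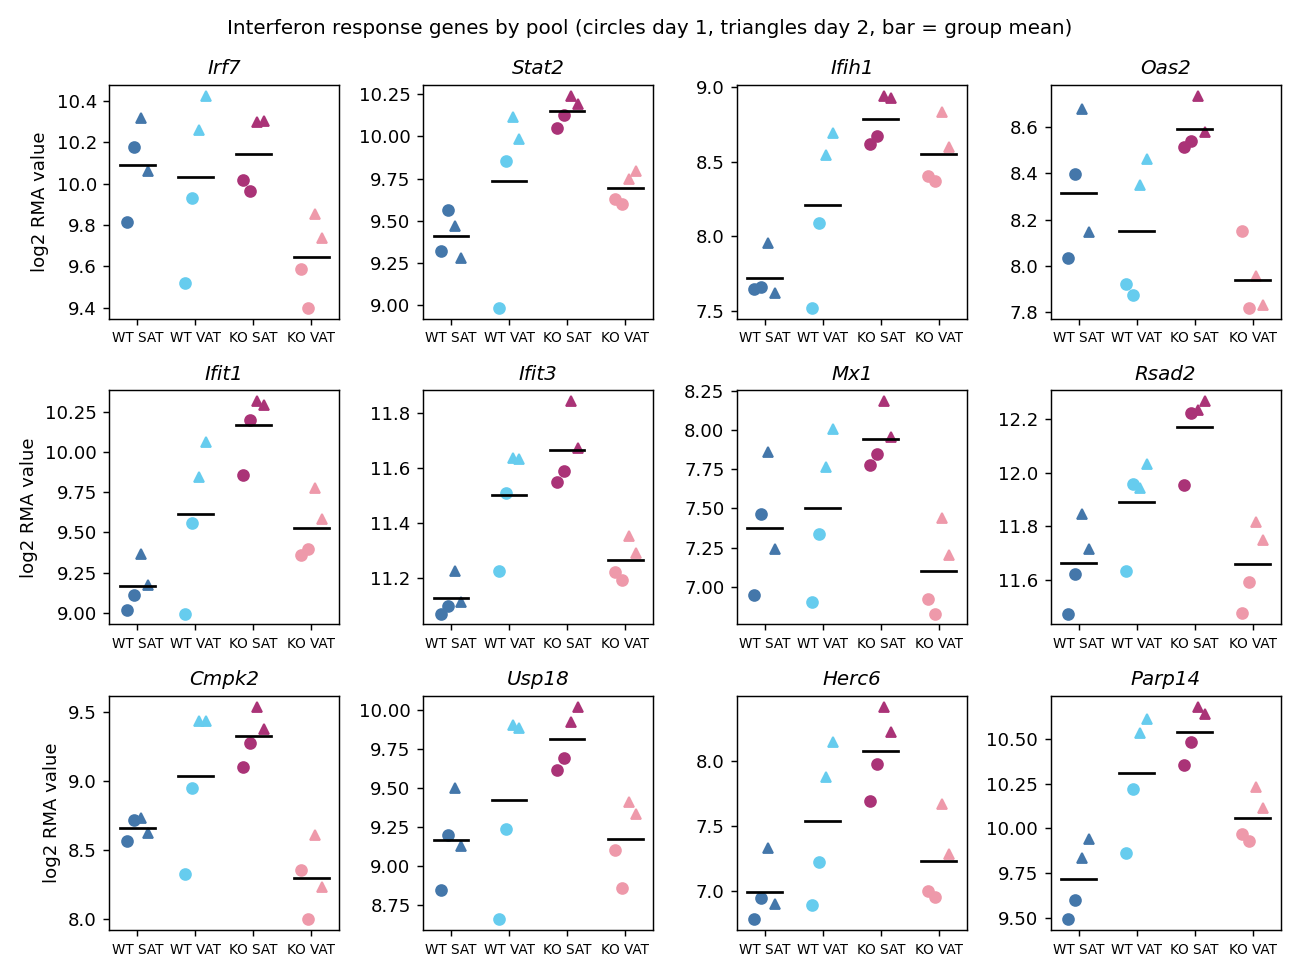
Log2 RMA values of 12 members in each pool, with circles for day 1, triangles for day 2 and a bar for the mean of 4 pools. KO SAT lies above KO VAT in every pool for each gene except Ifih1, and WT VAT pool 1 is the lowest WT VAT pool for each gene except Oas2.

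Macrophage markers moved with this depot difference. The mean of the 10 markers was 8.41 to 8.96 in KO SAT and 7.74 to 8.42 in KO VAT. The 10 include Lyz2, itself lower in KO than in WT, so in comparisons of genotypes this mean holds part of a genotype difference. With that mean as a further term, 0 of 34 members passed in limma (8 at an unadjusted p under 0.05) and the median change was -0.10. The mean of 8 endothelial markers was also higher in KO SAT, at 6.55 to 6.88 against 5.35 to 6.50 in KO VAT. All 8 of 8 were above background in KO SAT. From KO SAT to KO VAT 7 had a negative change and 1 a positive one, with a median of -0.54, and 1 passed, as lower. The seminal vesicle genes were high in KO SAT alone. The part of endothelial and seminal vesicle RNA in the result was not tested.

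Within the control mice, 2 of 34 members were higher in VAT than in SAT (5.88%), and 0 were lower, against 1.52% of all genes higher and 2.84% changed in either direction. These were Ifit3, with a change of 0.38 ± 0.08 (SE, limma adjusted p = 0.0162), and Parp14, with 0.59 ± 0.09 (SE, limma adjusted p = 0.0021). The median change was 0.25, and 28 of 34 changes were positive. Ifit3 was the only member whose pools did not overlap, which 1.64% of all genes did in this direction. Without WT VAT pool 1, 20 members passed, against 4 without WT SAT pool 2 and 1 without WT VAT pool 2 or 3. In day 2 alone 20 passed and in day 1 alone 0 (5 at an unadjusted p under 0.05 in limma), with medians of 0.63 and -0.02.

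**Figure D3:**
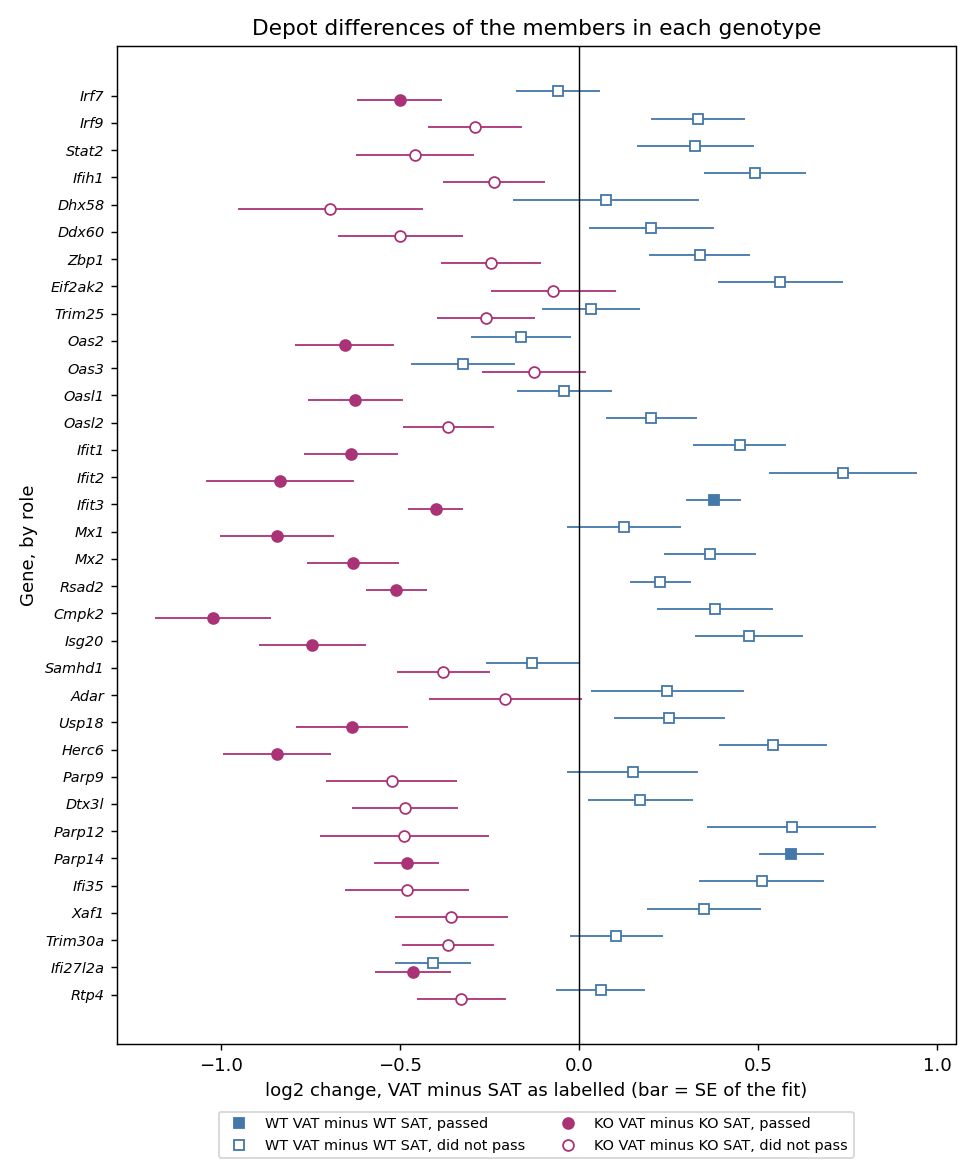
Log2 change from SAT to VAT as labelled, with its standard error, for each member in WT (squares) and KO (circles), filled where the adjusted p was under 0.05. Every KO point is left of 0 and 15 are filled, while 28 of the 34 WT points are right of 0 and 2 are filled.

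The depot difference of the knockout was set against that of the controls with an interaction term, which equals the VAT knockout effect less the SAT knockout effect. It was negative for 33 of 34 members, with a median of -0.70, and 12 passed (35.3%), all lower, against 2.12% of all genes lower and 4.22% in either direction. The largest were Ifit2 at -1.57 ± 0.29 (SE, limma adjusted p = 0.00491), Cmpk2 at -1.40 ± 0.23 (SE, limma adjusted p = 0.00177) and Herc6 at -1.39 ± 0.21 (SE, limma adjusted p = 0.0011). The smallest p was that of Parp14, with -1.08 ± 0.13 (SE, limma adjusted p = 0.000119). Effectors made up 8 of the 12. None of the 3 transcription factors, 6 sensor and ligase genes or 4 synthetases passed. Of these, 3, 4 and 3 in that order had an unadjusted p under 0.05 in limma. In day 1 alone 0 passed (10 at an unadjusted p under 0.05) and in day 2 alone 24. Without WT VAT pool 1, 27 passed. Markers of other cells had interactions too: 4 of 8 endothelial markers passed as lower, with all 8 negative and a median of -1.10. Those that passed as higher included 4 of 6 T cell, 3 of 5 B cell and 2 of 4 classical monocyte markers. All 4 monocyte changes were positive, with a median of 1.27, and 2 of the 4 markers were above background in each group. The part of all these cells in the members' interaction was not tested.

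In SAT, the members were higher in knockout than in control macrophages. Of 34, 25 rose and 0 fell (73.5%), against 16.7% of all genes that rose. The median change was 0.57, against -0.05 for all genes. The largest were Ifit2 at 1.38 ± 0.21 (SE, limma adjusted p = 0.000636), a 2.60-fold difference, Parp12 at 1.22 ± 0.24 (SE, limma adjusted p = 0.00267), Herc6 at 1.08 ± 0.15 (SE, limma adjusted p = 0.000388), Ifih1 at 1.07 ± 0.14 (SE, limma adjusted p = 0.0003) and Ifit1 at 0.999 ± 0.13 (SE, limma adjusted p = 0.000252). KO SAT pools lay wholly above WT SAT pools for 23 members, as they did for 16% of all genes. By role, 2 of 3 transcription factors, 4 of 6 sensor and ligase genes and 9 of 10 effectors rose. Both ISG15 genes, all 4 ADP-ribosyltransferase and Dtx3l genes and 4 of 5 others rose too.

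In the synthetase family 0 of 4 members passed in SAT (2 at an unadjusted p under 0.05 in limma). Irf7 had a change of 0.05 ± 0.12 (SE, limma adjusted p = 0.736) and did not pass. Stat2 rose, with a change of 0.74 ± 0.16 (SE, limma adjusted p = 0.00534). Whether these roles differ from the others was not tested.

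This comparison is crowded, since 36.7% of all genes passed in either direction. After each array was centred on its median, 3592 genes rose and 1727 fell, against 2859 and 3420 before, and 27 members rose. Markers of other cells moved in the SAT comparison. Of 8 endothelial markers 4 rose and 0 fell, with a median of 0.80, and their mean was 5.58 to 5.88 in WT SAT against 6.55 to 6.88 in KO SAT, with 6 of 8 above background in WT SAT and all 8 in KO SAT. Of 8 stromal markers 5 rose and 1 fell, with means of 6.76 to 7.15 in WT SAT and 7.46 to 7.86 in KO SAT. Of 6 T cell markers 5 fell and 1 rose, with means of 5.97 to 6.32 in WT SAT and 5.06 to 5.32 in KO SAT, and 3 of 5 B cell markers fell, with means of 5.56 to 5.99 and 4.87 to 5.16. Of 4 classical monocyte markers 2 fell and 0 rose, with means of 6.08 to 6.55 in WT SAT and 5.62 to 5.91 in KO SAT. The part of these cells in the rise of the members was not tested. The spread of values within an array also went with genotype: the interquartile range was 2.50 ± 0.11 log2 units in KO and 2.25 ± 0.19 in WT (SD over 8 arrays each, two-sided exact permutation p = 0.00699, with 0.0286 in day 1 and 0.0571 in day 2). With it as a further term, 6 members rose and 1 fell, and the median was 0.09. In day 1 alone, 5 rose.

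In VAT, 3 of 34 members fell in the knockout and 0 rose (8.82%), against 5.76% of all genes that fell and 15.9% that passed in either direction, a share near the background. They were Irf7 at -0.39 ± 0.12 (SE, limma adjusted p = 0.0385), Ifit3 at -0.24 ± 0.08 (SE, limma adjusted p = 0.0485) and Cmpk2 at -0.74 ± 0.16 (SE, limma adjusted p = 0.00953). A second Cmpk2 probe set above background had a difference of -0.13 in this comparison, so the size of the Cmpk2 fall differed between its probe sets. The median change of the members was -0.20, and 24 of 34 changes were negative. Without WT VAT pool 1, 12 fell, and without WT VAT pool 4, 2 rose and 1 fell. The count was 1 without WT VAT pool 2 or 3, KO SAT pool 2, 3 or 4, or any KO VAT pool. With array spread as a term 19 fell, while after median centring, where 1900 genes rose and 574 fell against 1740 and 984 before, 1 member fell.

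Because the depot markers went opposite ways, the knockout groups were also compared with the control group of the other depot name. KO SAT was higher than WT VAT for 5 of 34 members (14.7%) and lower for 0, against 4.71% of all genes higher and 6.89% in either direction. These were Ifi27l2a at 0.59 ± 0.11 (SE, limma adjusted p = 0.0115), Ifih1 at 0.57 ± 0.14 (SE, limma adjusted p = 0.0337), Ifit1 at 0.55 ± 0.13 (SE, limma adjusted p = 0.0299), Herc6 at 0.54 ± 0.15 (SE, limma adjusted p = 0.0455) and Trim30a, an interferon-induced TRIM gene, at 0.53 ± 0.13 (SE, limma adjusted p = 0.0309). The median change was 0.38. Oas2 was the only member whose pools did not overlap, as 3.02% of all genes did. The count was 16 without WT VAT pool 4, 11 without WT SAT pool 4, 3 without WT VAT pool 2 and 1 without WT VAT pool 1 or any single KO SAT pool. After median centring 7 members were higher, with 1077 genes higher and 213 lower against 806 and 372 before.

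KO VAT against WT SAT gave 5 higher members (14.7%) and 3 lower (8.82%), against 18.3% and 21% of all genes (39.3% in either direction), so the members' shares were below the background. Ifih1 at 0.83 ± 0.14 (SE, limma adjusted p = 0.00102), Parp12, a mono-ADP-ribosyltransferase, at 0.73 ± 0.24 (SE, limma adjusted p = 0.0254), Ifit2 at 0.54 ± 0.21 (SE, limma adjusted p = 0.0498), Ifit1 at 0.36 ± 0.13 (SE, limma adjusted p = 0.0413) and Parp14 at 0.35 ± 0.09 (SE, limma adjusted p = 0.0105) were higher. Irf7 at -0.45 ± 0.12 (SE, limma adjusted p = 0.0105), Oas2 at -0.38 ± 0.14 (SE, limma adjusted p = 0.0439) and Ifi27l2a at -0.29 ± 0.11 (SE, limma adjusted p = 0.0437) were lower. Pools did not overlap for 4 members, all higher in KO VAT, against 18.5% of all genes. The direction depended on scaling: 1 was higher and 11 lower after quantile normalization, and 5 were higher and 0 lower after median centring, where 3644 genes were higher and 1869 lower against 3131 and 3586 before. With array spread as a term 0 were higher and 10 lower, and with the macrophage marker mean 17 were higher and 0 lower. The count fell to between 3 and 5 without any single KO VAT pool, without WT SAT pool 3 or 4, or without KO SAT pool 3 or 4, and without WT SAT pool 1 it was 3 higher and 4 lower.

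A comparison that does not use the depot names, both knockout groups against both control groups, gave 14 higher members and 0 lower (41.2%), against 22.5% of all genes that were higher and 51.7% that passed in either direction. The median was 0.19. This count turned with the processing: 6 higher and 8 lower after quantile normalization, and 0 higher and 6 lower with array spread as a term. Median centring gave 18 higher and 0 lower, with 4670 genes higher and 2801 lower against 3841 and 4990 before. The difference between the crossed comparisons, KO SAT minus WT VAT less KO VAT minus WT SAT, is the test of unequal knockout effects if the depot names of 1 genotype were exchanged. In it 2 of 34 members passed (5.88%), Oas2 and Ifi27l2a, both higher, against 1.81% of all genes higher and 2.94% in either direction, with a median of 0.27. The count was 5 without WT VAT pool 4, 4 without WT SAT pool 4, and 1 without any single KO SAT pool, pool 2 or 3 of either control group, or KO VAT pool 2, 3 or 4. Both of these comparisons were added after the depot markers had been seen.

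The members' level can be set beside 2 properties of the arrays, as a description over all 16. The arrays with the narrowest spread included WT VAT pool 1, with an interquartile range of 2.01, and those with the widest included KO SAT pools 3 and 4, with 2.61 and 2.63. KO VAT pool 3, at 2.62, had as wide a spread and a member level of 0.11. Within each VAT group the member level rose with the spread from pool to pool. In WT VAT it went from -0.56 at 2.01 to 0.46 at 2.54, and in KO VAT from -0.31 at 2.36 to 0.11. WT VAT pools 3 and 4, with 2.50 and 2.54, had levels in the range of KO SAT. Within WT SAT and KO SAT the 2 orders did not match throughout. WT SAT had macrophage marker means of 8.63 to 9.03, as high as KO SAT, and lower member levels in all 4 pools. Their part in the genotype and depot results beyond the terms given above was not tested.

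**Figure D4:**
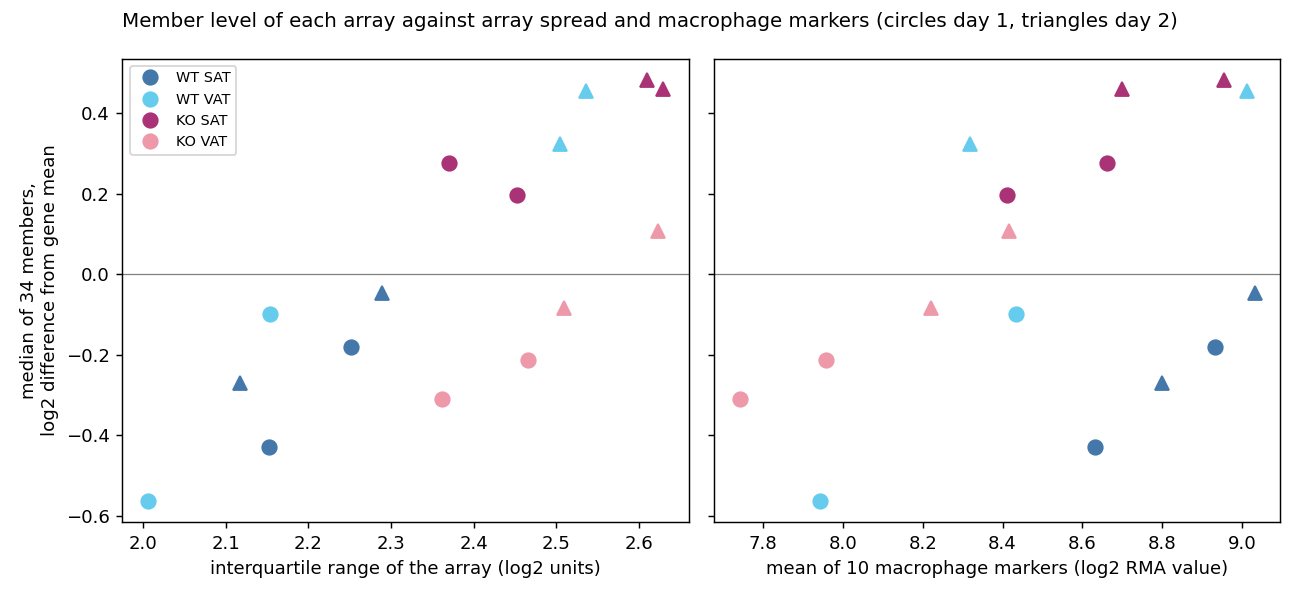
Median over the 34 members of the log2 difference from the gene mean, for each of the 16 arrays, against the array's interquartile range (left) and the mean of 10 macrophage markers (right). KO SAT arrays lie above KO VAT arrays of like spread, and above WT SAT arrays of like macrophage marker level. Within WT VAT and within KO VAT, arrays of wider spread lie higher.

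The members varied together to different degrees. With day means removed, Usp18 followed the mean of the members most closely (Pearson r = 0.98 over 16 arrays), then Herc6 (0.96) and Ifit2 (0.95). The loosest were Oas3 (0.21), Ifi27l2a (0.49) and Irf7 (0.62). Each member is part of that mean and the points share their arrays, so these are descriptions. Outside the lists, the 8 genes closest to the mean of the members were Uba7, Cebpg, Vps4a, Aftph, Psme2, Gm9706, Tapbp and Car13, all with r = 0.95 over the same arrays. Uba7 encodes the enzyme that activates ISG15, whose own gene was not analysed here, and Psme2 and Tapbp act in antigen processing.

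Upstream of the members, 39 pathway genes were measured. In KO VAT against KO SAT 4 fell (10.3%, against 2.39% of all genes lower and 4.32% in either direction) and 0 rose, with a median of -0.12. Of the 10 ligand genes, 6 were below background in all groups, among them Ifnb1, the interferon beta gene, with group means of 4.15 to 4.31. Ifna1 and Ifna5, of the interferon alpha family, were above it in all 4, with group means of 6.08 to 6.60 and 5.89 to 6.55. The family's genes are close copies, so a probe set may read more than its own gene. None of the 10 passed in either depot comparison in limma (0 at an unadjusted p under 0.05 in KO, 1 in WT).

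In the knockout against the control, all 10 ligand genes had negative changes in both depots. In SAT 4 of 10 fell and 0 rose (40%), against 20% of all genes that fell, with a median of -0.25. They were Ifna5 at -0.66 ± 0.16 (SE, limma adjusted p = 0.00714), Ifnab at -0.47 ± 0.10 (SE, limma adjusted p = 0.00545), Ifna11 at -0.36 ± 0.08 (SE, limma adjusted p = 0.00498) and Ifna9 at -0.24 ± 0.08 (SE, limma adjusted p = 0.0323), of which only Ifna5 was above background in every group. Over both depots 7 of 10 were lower and 0 higher (70%), against 29.2% of all genes lower. In VAT 0 of 10 passed (3 at an unadjusted p under 0.05 in limma). With array spread as a further term the 4 had limma adjusted p from 0.299 to 0.521 in SAT.

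Of 5 receptor and kinase genes 1 passed in KO VAT against KO SAT, Ifnar1 at -0.39 ± 0.10 (SE, limma adjusted p = 0.0295). Ifnar1 read 7.96, 8.16, 8.16 and 8.07 for SAT and 8.08, 7.83, 8.05 and 8.33 for VAT in controls, and 8.17, 8.30, 8.35 and 8.28 for SAT and 7.85, 7.66, 8.12 and 7.90 for VAT in knockouts. Its KO VAT pools were all below its KO SAT pools. Ifnar2 had a change of -0.37 ± 0.14 (SE, limma adjusted p = 0.2) and did not pass.

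Of 14 upstream sensors and adaptors, 2 fell from KO SAT to KO VAT. They were Tlr7, a sensor of single-stranded RNA, at -0.52 ± 0.09 (SE, limma adjusted p = 0.00446), and Irf5, a factor downstream of the endosomal receptors, at -0.70 ± 0.12 (SE, limma adjusted p = 0.00404). Tlr3, the endosomal sensor of double-stranded RNA, passed in the interaction at -1.17 ± 0.23 (SE, limma adjusted p = 0.00641). It read 7.23, 7.41, 7.59 and 7.62 for SAT and 7.43, 8.09, 8.87 and 8.38 for VAT in controls, and 8.48, 8.65, 8.96 and 8.90 for SAT and 8.27, 8.12, 8.53 and 8.31 for VAT in knockouts. All WT SAT pools of Tlr3 were below all knockout pools, while its WT VAT pools, from 7.43 to 8.87, overlapped those of both knockout groups. Of 10 negative regulators, Trex1, which degrades cytosolic DNA, fell from KO SAT to KO VAT, at -0.72 ± 0.16 (SE, limma adjusted p = 0.0177), and had an interaction of -1.17 ± 0.23 (SE, limma adjusted p = 0.00713). Nlrc3, an inhibitor of DNA sensing, had the opposite interaction, 0.94 ± 0.18 (SE, limma adjusted p = 0.00586).

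Plasmacytoid dendritic cells are a major source of interferon alpha. The mean of their markers, 7 measured of 9 listed, ran from 5.38 to 5.69 in WT VAT and 5.55 to 5.68 in WT SAT. It was 5.33 to 5.49 in KO SAT and 5.28 to 5.46 in KO VAT. Of the 7, 4 were above background: Ccr9, Cox6a2, Klk1 and Tcf4. In KO SAT against WT SAT 4 of the 7 were lower and 1 higher in limma, against 20% of all genes lower and 16.7% higher. Whether these markers track such cells in this fraction was not tested. Siglech, their defining marker, was not analysed here.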

How the data were processed

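RNA of macrophages from SAT and VAT of WT and KO mice was read on 16 Affymetrix arrays, 4 pools a group. The deposited values are log2 RMA values per probe set, per the submitters' processing notes, which name RMA and affy. RMA usually sets arrays to a common distribution of probe signals, and it compresses differences of dim probe sets. The interquartile range of the deposited arrays still ran from 2.01 to 2.63. RNA was taken from 300000 cells and its cDNA amplified for 24 cycles, per the labels' protocols, which can distort levels. Of 45141 probe sets, 28898 had 1 gene in the platform annotation and 551 several, which were left out with the unnamed. All 28689 Entrez identifiers found in the RefSeq table kept their symbol. The probe set with the highest mean stood for each of 17097 genes, and 7180 genes had several.

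R 4.3.3 and limma 3.58.1 gave the changes, with two-sided moderated tests from 1 linear model of all 16 arrays (lmFit, then eBayes) that held group and day as terms, Benjamini-Hochberg adjustment over 17097 genes and a threshold of 0.05. There were 7 planned and 2 added comparisons, which share groups and are not independent. Means carry the spread of 4 pools, and that number limits the precision. Genes with values in every pool were a fixed set of members and the one of each role with the smallest p in KO VAT minus KO SAT; the promoters were chosen by the size of the decrease and the presence of the element. Members and lists were chosen with earlier results of these data known. The fit was tested on simulated data. Alternatives were 13 other settings and each array left out in turn.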

Additional observations from a re-analysis of the deposited data

Results flagged for a closer look

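In 4 of 136 member groups of 4 pools, 1 pool stood apart from the other 3 by a gap past Dixon's 95% limit, which chance does in about 1 in 20 groups. Ifih1 in WT SAT pool 3 read 7.95 against 7.66 for the next pool, and Parp12 in WT SAT pool 3 read 7.61 against 7.12. Zbp1 in KO SAT pool 2 read 10.01 against 10.23 for the next pool, and Rsad2 in KO SAT pool 1 read 11.95 against 12.22.

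For 12 members the knockout effect differed between depots as labelled, by the interaction term in limma (log2 VAT knockout effect less the SAT effect, adjusted p from 0.000119 to 0.0323). Among the effectors it was -1.09 for Ifit1, -1.57 for Ifit2, -0.78 for Ifit3, -0.97 for Mx1, -0.998 for Mx2, -0.74 for Rsad2, -1.40 for Cmpk2 and -1.22 for Isg20. For the ISG15 genes it was -0.89 for Usp18 and -1.39 for Herc6, and it was -1.08 for Parp14 and -0.99 for Ifi35. Since depot markers went opposite ways in the 2 genotypes, an unequal knockout effect and an exchange of depot names in 1 genotype cannot be told apart here.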

How the results depend on the processing

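In this section counts are of the 34 members passed in limma, in the order higher and lower. The comparisons are the WT depot difference (2 and 0), the KO depot difference (0 and 15), the knockout effect in SAT (25 and 0) and in VAT (0 and 3), the crossed comparisons KO SAT minus WT VAT (5 and 0) and KO VAT minus WT SAT (5 and 3), the interaction (0 and 12), the knockout effect over both depots (14 and 0) and the difference of the crossed comparisons (2 and 0).

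With array spread as a term, the totals were 7 (WT depot), 29 (KO depot), 7 (SAT), 19 (VAT), 3 (KO SAT minus WT VAT, 1 higher and 2 lower), 10 (KO VAT minus WT SAT, all lower), 6 (both depots, all lower) and 10 (crossed difference). The medians moved to 0.092 in SAT, 0.064 in KO SAT minus WT VAT, -0.31 in KO VAT minus WT SAT and -0.20 over both depots. Single genes turned sign under it: in SAT Irf9 to -0.0075, Zbp1 to -0.13, Adar to -0.20 and Xaf1 to -0.12, and in KO VAT minus WT SAT Ifit2 to -0.031 and Parp12 to -0.057. With the macrophage marker mean as a term, added after the data were seen, the totals were 14 (WT depot), 0 (KO depot, median -0.10, 8 at an unadjusted p under 0.05), 5 (VAT, 4 higher and 1 lower, median 0.018), 1 (KO SAT minus WT VAT), 17 (KO VAT minus WT SAT, median 0.59), 25 (both depots) and 0 (crossed difference, median -0.38, 8 unadjusted), and Ifi27l2a in KO VAT minus WT SAT turned to 0.12.

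Array weights gave 11 (WT depot), 31 (KO depot), 7 (VAT), 3 (KO SAT minus WT VAT), 15 (KO VAT minus WT SAT, 7 higher and 8 lower), 25 (interaction) and 6 (crossed difference). Quantile normalization gave 14, 27, 19, 2, 12 (1 higher and 11 lower, median -0.089), 23 and 8 for the same comparisons, and 14 over both depots (6 higher and 8 lower, median -0.0012). Arrays of the compared groups alone gave 0 (WT depot, 10 unadjusted), 30 (KO depot), 1 (VAT) and 0 (KO SAT minus WT VAT, 20 unadjusted). Without the day term the totals were 0 (WT depot, 10 unadjusted), 4 (KO depot), 16 (SAT), 1 (VAT), 0 (KO SAT minus WT VAT, 13 unadjusted), 1 (KO VAT minus WT SAT), 8 (both depots) and 0 (crossed difference, 7 unadjusted). Median centring gave 1 (VAT), 5 (KO VAT minus WT SAT) and 1 (crossed difference), and the trend and robust setting gave 1 for the last.

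Day 1 alone gave 0 (WT depot, median -0.024, 5 unadjusted), 1 (KO depot), 5 (SAT), 2 (VAT, both higher, median 0.046), 16 (KO SAT minus WT VAT), 1 (KO VAT minus WT SAT), 0 (interaction, median -0.40, 10 unadjusted), 9 (both depots) and 0 (crossed difference, 14 unadjusted). Day 2 alone gave 20 (WT depot, median 0.63), 1 (KO depot), 0 (KO SAT minus WT VAT, 7 unadjusted), 24 (interaction, median -1.07), 7 (both depots) and 0 (crossed difference, median -0.042, 6 unadjusted). Each has 8 arrays. The array interquartile range differed by 0.23 between genotypes in day 2 alone (exact permutation p = 0.0571).

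Leaving out 1 array at a time gave 1 to 20 (WT depot), 10 to 21 (KO depot), 17 to 28 (SAT), 1 to 12 (VAT), 1 to 16 (KO SAT minus WT VAT), 3 to 12 (KO VAT minus WT SAT), 9 to 27 (interaction), 10 to 17 (both depots) and 1 to 5 (crossed difference), with medians of 0.18 to 0.44, -0.50 to -0.44, 0.49 to 0.71, -0.31 to -0.078, 0.22 to 0.45, 0.069 to 0.22, -0.85 to -0.57, 0.12 to 0.24 and 0.13 to 0.32. In VAT the total was 1 without WT VAT pool 2 or 3, KO SAT pool 2, 3 or 4, or any KO VAT pool. In the WT depot difference it was 4 without WT SAT pool 2 and 1 without WT VAT pool 2 or 3. In the crossed difference it was 5 without WT VAT pool 4, 4 without WT SAT pool 4 and otherwise 1 or close to the main count. For KO SAT minus WT VAT it was 3 without WT VAT pool 2. For KO VAT minus WT SAT it was 7 without WT SAT pool 1 (3 higher and 4 lower).

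With pool number as a replicate block in place of day the totals were 2, 15, 25, 2, 5, 7, 11 and 14, and the crossed difference had 1. The numbers were not taken as pairs, since the labels do not say that they are. Deviations from group means of same-numbered pools had correlations from -0.48 to 0.632 over all 4 groups. Of 16 arrays, 5 were closest to their own number. Both values take in pools of different genotype and keep the day difference. They cannot decide whether SAT and VAT pools of 1 genotype came from the same mice. Of the 25 members passed in SAT, 4 passed under every alternative, and of the other comparisons' members 0 did. The filter on dim probe sets and the mean over probe sets left each total within 1.5 times. The cause of these shifts was not tested, other than that single days and left-out arrays hold fewer samples.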

Other observations

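Genes induced mainly by interferon gamma, the type II interferon, showed a like pattern of levels. Of 11 measured, 4 fell from KO SAT to KO VAT (36.4%, against 2.39% of all genes lower) and 0 rose, with a median log2 change of -0.56. In KO SAT against WT SAT 9 rose (81.8%, against 16.7% of all genes higher and 36.7% in either direction) and 1 fell, with a median of 0.78. In the interaction 6 were lower (54.5%, against 2.12% of all genes lower) and 0 higher, with a median of -0.97. Those 6 were Irf1, a transcription factor shared by both responses, the guanylate-binding proteins Gbp2, Gbp3 and Gbp7, and the immunity-related GTPases Iigp1 and Irgm2. Gbp3 had the largest interaction, -2.17 ± 0.31 (SE, limma adjusted p = 0.000676), and its means in SAT and VAT were 4.88 and 6.26 in controls, and 6.95 and 6.15 in knockouts. Ifng itself, the ligand gene, was below background in all groups, with means from 3.61 to 3.90. Many of these genes also respond to type I interferon, and the lists were chosen with earlier results known.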
